A study of Mus musculus with 4 samples.

Results

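Neutrophils, the short-lived granulocytes that enter tissue from blood, were picked out of 4 mouse kidney libraries by marker transcripts. A barcode (1 droplet, read as 1 cell) was kept if it held 300 or more genes and at most 50% mitochondrial UMIs (unique molecular identifiers, each counted as 1 transcript). A kept barcode was called a neutrophil if it held 20 or more UMIs of S100a8 and S100a9 together, a UMI of Retnlg or Csf3r, no UMI of the macrophage gene C1qa and at most 10 UMIs of the proximal tubule gene Slc34a1. This gave 814 neutrophils among 41076 kept barcodes, out of 52478 barcodes in all. The libraries at 0, 1, 4 and 12 h held 346, 328, 82 and 58 of them.

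The kidneys came from 10-week-old C57BL/6J mice of both sexes, whose cells were pooled within each library, and were profiled with the 10x Genomics 3' V3 chemistry. FGF23, a phosphate-lowering hormone made by bone that binds FGF receptors together with Klotho, its co-receptor on tubule cells, was given as recombinant human protein (rhFGF23) by intraperitoneal injection at 10 µg per mouse. Kidneys were collected 1, 4 or 12 h later, and the fourth library is labelled 0 h with a dose of 0 µg, although its deposited name describes saline at 1 h. Each group is 1 library, so no difference below has a replicate check and no test between groups was possible. Intervals are exact 95% intervals that cover counting error only. The comparisons at 1, 4 and 12 h share the 0 h library, and are given side by side.

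Neutrophils are made in the bone marrow, where primary granule proteins such as myeloperoxidase are transcribed first, then secondary granule proteins such as lactoferrin, and last the gelatinase granule proteins and surface receptors of the mature cell. A mature neutrophil carries S100A8 and S100A9, which together form the antimicrobial protein calprotectin, in large amounts, and follows CXCR2 ligands out of the vessel. It answers G-CSF, IL-1, bacterial products and interferons within hours by transcribing cytokines, acute-phase proteins and interferon-stimulated genes.

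The rule fixed the S100a8 and S100a9 levels, which are given here only as a description. S100a8 stood at 65640, 70480, 39250 and 41650 CPM at 0, 1, 4 and 12 h, where CPM is the sum over all members of a library scaled to 1000000 UMIs. S100a9 stood at 80230, 81280, 50990 and 54540 CPM in the same order. In a typical cell both together took a median of 16.4%, 16.7%, 10.8% and 10.0% of UMIs, so the 4 h and 12 h cells carried a smaller share of these transcripts, while the ranges of single cells overlapped across all libraries. Retnlg, which encodes a resistin-like secreted protein, stood at 16240, 15760, 7926 and 8369 CPM. Csf3r, the G-CSF receptor, stood at 1437, 1783, 1593 and 2531 CPM. Of the 904 kept barcodes with 20 or more S100 UMIs, 87 were left out for Slc34a1 above the limit, 2 for C1qa and 1 for lack of both Retnlg and Csf3r. Just inside the S100 limit, with 20 to 29 UMIs, lay 9, 6, 3 and 2 members in order of time, and just outside, with 10 to 19 UMIs, lay 6, 4, 2 and 1 barcodes. Just inside the Slc34a1 limit, with 6 to 10 UMIs, lay 2, 0, 3 and 1 members, and just outside, with 11 to 20, lay 8, 7, 1 and 2 barcodes.

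Neutrophil markers that the rule did not use were also far higher in these cells than in the other kept barcodes. Cxcr2, the chemokine receptor for CXCL1 and CXCL2, stood at 1033, 1241, 1186 and 1372 CPM, against 0.433 to 1.501 CPM in the other kept barcodes. With each cell thinned to 1000 UMIs, Cxcr2 was found in 66.5%, 73.1%, 77.5% and 83.9% of neutrophils (87.0%, 89.6%, 93.9% and 94.8% before thinning), and in at most 0.1% of tubule barcodes, those with 11 or more Slc34a1 UMIs and fewer than 20 S100 UMIs, of which 1000 were drawn per library. Thinning left out 15, 16, 2 and 2 shallower neutrophils. Hdc, the histamine-forming enzyme, stood at 1123, 1395, 976 and 895 CPM, against at most 3.96 CPM in the others. Between libraries, the list of 12 neutrophil markers takes in 4 rule genes, so its counts and medians are a description. At 1 h 0 of 12 were called, against 6.52% of all genes in either direction. At 4 h 10 of 12 were below 0 h and 3 of them 2-fold or more lower, against 4.89% of all genes. The median log2 ratio was -0.63 (-0.36 without the deep barcodes described next). The 3 were Ly6g, G0s2 and the rule gene Retnlg. At 12 h 9 of 12 were below 0 h, with a median of -0.58. Of these 3 were called (Ly6g, G0s2 and Il1r2, none a rule gene), against 5.73% of all genes. Choosing the cells without S100a8 and S100a9, by 3 or more of Retnlg, Csf3r, Cxcr2, Mmp9, Hdc, Clec4d and Trem1, gave 366, 339, 86 and 59 barcodes. These took in 99.4%, 100%, 100% and 98.3% of the members in order of time, and the members made up 94.0%, 96.8%, 95.3% and 96.6% of them. This overlap is partly built in. Retnlg and Csf3r serve both choices, as do the limits on C1qa and Slc34a1, and 700 of the 814 members held both Retnlg and Csf3r. Defining markers of other granulocytes and of platelets were close to 0, with 5 of 6 eosinophil, basophil and mast cell markers and at least 3 of 4 platelet markers at 0 UMIs in every library.

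The members were shallow barcodes with few mitochondrial transcripts. Their median depth was 1704.5, 1763.5, 1761.5 and 1561.5 UMIs, against 9422.5 to 11666 UMIs for all kept barcodes, and their median mitochondrial share was 4.69%, 2.48%, 1.58% and 3.12%. In contrast, 24 members were more than 3 times as deep as the median of their library, 10, 8, 4 and 2 of them in order of time. They held 16.3%, 10.7%, 30.8% and 18.5% of all member UMIs, and most of them carried markers of tubule, B, T or endothelial cells beside those of neutrophils. The deepest, at 4 h, had 39459 UMIs, or 17.7% of the UMIs of that library's members, and held all 425 UMIs of Upk3a, a urothelial plaque protein. The main values that these deep barcodes move are also given without them. No member barcode was shared between libraries.

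**Figure D1:**
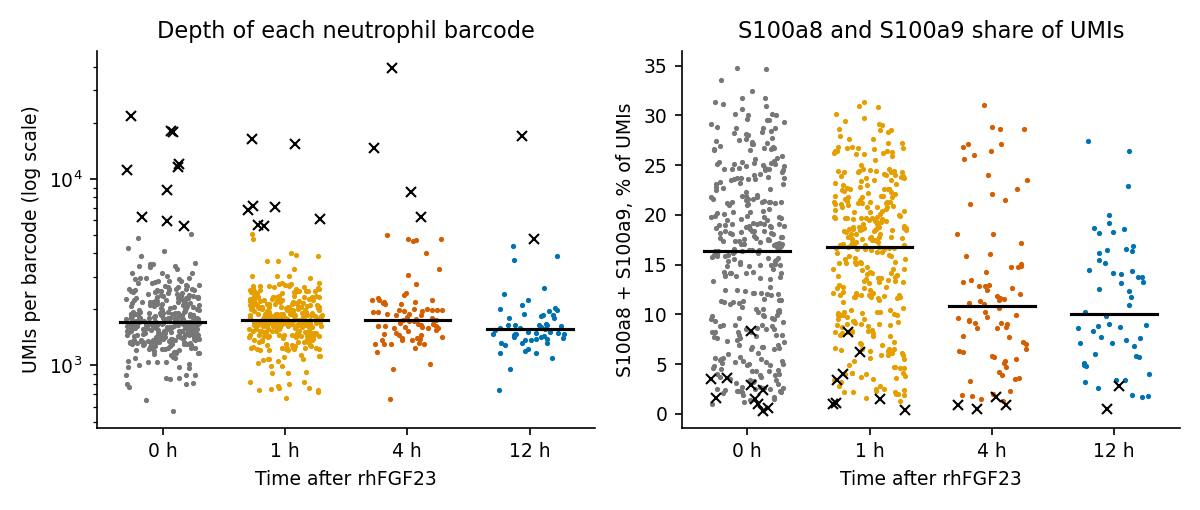
UMIs per neutrophil barcode on a log scale (left) and S100a8 plus S100a9 as a percentage of UMIs (right), 1 point per barcode by library, with a bar at the median. Crosses are the 24 deep barcodes, and the S100 medians are 16.4% and 16.7% at 0 and 1 h against 10.8% and 10.0% at 4 and 12 h.

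The share of neutrophils was alike at 0 and 1 h and much lower at 4 and 12 h. They made up 3.42% of kept barcodes in the 0 h library (95% interval 3.07 to 3.79) and 3.46% in the 1 h library (3.102 to 3.85). In the 4 h library they made up 0.737% (0.587 to 0.915), and in the 12 h library 0.560% (0.426 to 0.723). The 0 h and 1 h intervals overlapped almost fully, and neither reached those of the later libraries. Set against 0 h, the log2 ratio of the share after 1 h was 0.02 (-0.20 to 0.24). It was -2.21 after 4 h (-2.58 to -1.86), 4.64-fold lower, and -2.61 after 12 h (-3.04 to -2.20), 6.10-fold lower. These are shares of barcodes, so fewer neutrophils and more of the other cells cannot be told apart. Ptprc is the gene of the leukocyte surface protein CD45. Of the kept barcodes that held a Ptprc UMI or were called neutrophils, neutrophils took 30.3%, 35.0%, 13.2% and 5.94%.

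Other leukocytes did not follow the same course over the 12 h. Macrophage barcodes, defined by 10 or more C1q UMIs, took 0.840%, 0.327%, 0.0540% and 0.454% of kept barcodes, with their lowest share at 4 h. B cell barcodes, with 3 or more UMIs of a list of B cell markers, took 2.03%, 1.96%, 0.971% and 2.89%. T and NK cell barcodes, defined alike, took 2.82%, 2.46%, 2.13% and 4.02%. At 12 h the B and T or NK shares were thus above those at 0 h, by 0.51 and 0.51 on the log2 scale, while the neutrophil share was lowest.

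The share was also lower within barcodes of either sex call. Barcodes were called female by Xist without a Y-linked UMI, or male by a Y-linked UMI without Xist, which left 253, 244, 61 and 51 neutrophils with neither. Among female-called barcodes 18, 20, 4 and 4 were neutrophils, or 0.722%, 0.779%, 0.121% and 0.144%. Among male-called barcodes 73, 64, 17 and 3 were neutrophils, or 1.72%, 1.60%, 0.395% and 0.0816%. In both the share was lower at 4 and 12 h than at 0 h, with log2 ratios of -2.58 and -2.33 for female-called and of -2.12 and -4.40 for male-called barcodes.

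**Figure D2:**
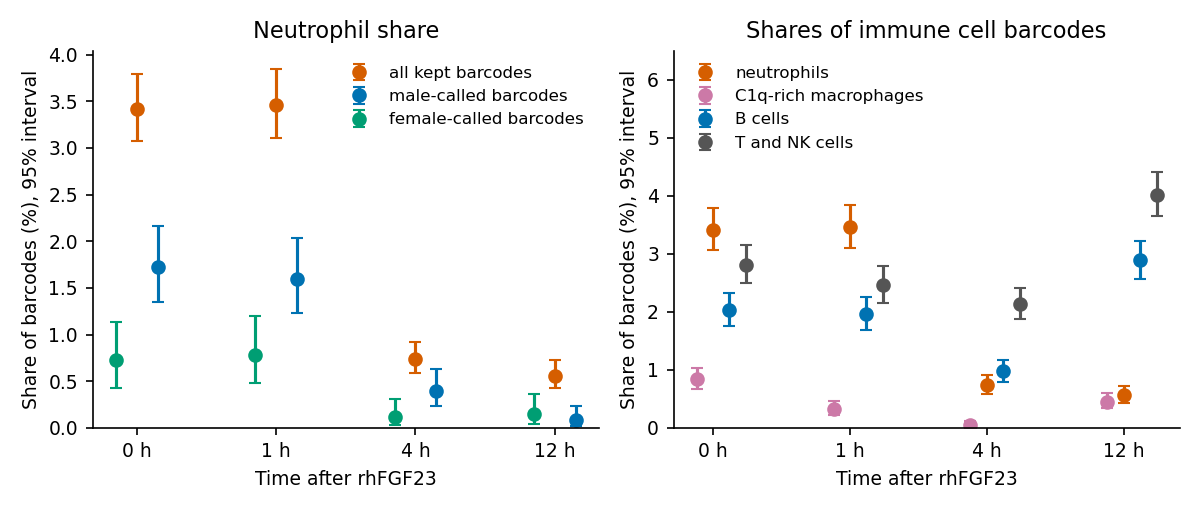
Left, neutrophils as a percentage of all kept, male-called and female-called barcodes at 0, 1, 4 and 12 h. Right, neutrophils beside macrophage, B cell and T or NK cell barcodes as a percentage of kept barcodes. Points are single libraries and bars exact 95% counting intervals. The neutrophil share of kept barcodes is 3.42% at 0 h and 0.560% at 12 h.

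S100 transcripts outside neutrophils moved with the neutrophil share. In tubule barcodes, whose median depth was 13248 to 14484.5 UMIs, S100a8 and S100a9 stood at 10.4, 7.44, 1.91 and 1.15 CPM, and 13.8%, 10.2%, 2.47% and 1.61% of these barcodes held a UMI of either gene. Proximal tubule transcripts were in turn found in the neutrophils, where 10 such markers summed to 5535, 2484, 2846 and 5702 CPM, against 46054 to 59815 CPM in the other kept barcodes. The sums without the deep barcodes were 3030, 1872, 3766 and 2594 CPM, so the highest library was then 4 h and not 12 h. Their part in the results below was not tested, and ratios in the other kept barcodes are given for the main groups of genes.

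Most genes differed less than 2-fold between libraries, the size used here to call a gene higher or lower. Genes with at least 10 UMIs expected in the smaller of both libraries numbered 5044 at 1 h, 2579 at 4 h and 1432 at 12 h. At 1 h 140 genes (2.78%) were 2-fold or more higher and 189 (3.75%) lower than at 0 h. At 4 h 270 (10.5%) were higher and 126 (4.89%) lower, and at 12 h 112 (7.82%) were higher and 82 (5.73%) lower. Scaled so that the median gene had a ratio of 1, the 4 h split was 207 higher and 169 lower, and the 12 h split 50 higher and 105 lower. The median log2 ratio of all these genes was 0.10, 0.12 and 0.23. Without the deep barcodes 3.29% of genes were higher and 1.78% lower at 1 h, 6.14% and 3.38% at 4 h, and 4.12% and 3.34% at 12 h. Among genes enriched at least 2-fold in neutrophils over the other kept barcodes, deep barcodes included, the shares were 3.3% and 0.98% at 1 h, 6.14% and 6.84% at 4 h, and 3.99% and 4.23% at 12 h. The naming rule written for the sums over all members gave, as genes higher at 4 h, urothelial and epithelial genes such as Upk3a, and at 1 h included genes of intercalated and endothelial cells such as Slc4a1 and Emcn. Genes are therefore named by this rule with the deep barcodes left out. Its condition that male-called and female-called members move the same way was not applied. The named genes come from enriched genes found in 10% or more of the cells of the library where they were higher. This change of rule was made after the values had been seen. By it 4 of 1234 genes were higher and 1 lower at 1 h (0.324% and 0.081%), 62 of 1092 higher and 43 lower at 4 h (5.68% and 3.94%), and 37 of 772 higher and 28 lower at 12 h (4.79% and 3.63%).

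Wfdc17 and Lrg1 had the largest upward ratios at 4 h among the named genes. Wfdc17, a small secreted protein with a whey acidic protein domain (GRCm38 chromosome 11, 83703991 to 83706268, plus strand), stood at 207, 398, 1562 and 801 CPM at 0, 1, 4 and 12 h. Its log2 ratio to 0 h was 2.92 at 4 h (2.64 to 3.20), and 3.17 without the deep barcodes. Lrg1, a leucine-rich glycoprotein stored in neutrophil granules and known as an acute-phase protein (chromosome 17, 56119678 to 56122001, minus strand), stood at 220, 433, 1468 and 401 CPM. Its log2 ratio was 2.73 at 4 h (2.46 to 3.02), and the 4 h library was high while the 1 h and 12 h libraries lay between it and 0 h. In cells thinned to 1000 UMIs, Lrg1 was found in 17.2%, 28.2%, 76.2% and 28.6% (23.7%, 39.9%, 87.8% and 39.7% before thinning), and in 0.2% to 0.4% of tubule barcodes thinned alike. Wfdc17 was found in 13.6%, 22.4%, 53.8% and 30.4% of thinned cells (19.4%, 25.9%, 65.9% and 37.9% before thinning), and in at most 0.2% of tubule barcodes. Both genes were thus found in most cells of the 4 h library, and in a minority of cells elsewhere.

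Socs3, which encodes the feedback inhibitor of G-CSF and IL-6 receptor signalling (chromosome 11, 117966079 to 117970047, minus strand), stood at 204, 342, 595 and 443 CPM. Its log2 ratios were 0.74, 1.55 and 1.13, so it was called at 4 and 12 h. Sbno2, a transcriptional regulator induced by STAT3, stood at 126, 246, 327 and 247 CPM with log2 ratios of 0.96, 1.38 and 0.99. Il1rap, the IL-1 receptor accessory chain, stood at 36.9, 57.7, 157 and 68.2 CPM and was 2.08 higher on the log2 scale at 4 h. Csf2rb, the common chain of the GM-CSF, IL-3 and IL-5 receptors, stood at 148, 220, 354 and 204 CPM with a log2 ratio of 1.26 at 4 h. Tagln2, an actin-binding protein, stood at 69.8, 86.5, 273 and 153 CPM with a log2 ratio of 1.97 at 4 h. In the other kept barcodes none of these 7 genes was 2-fold higher at 4 h, where their log2 ratios lay between -0.66 for Wfdc17 and 0.66 for Tagln2. Csf2rb, like Ifit3 and Ly6c2 below, has a close paralog, and reads shared with it may have been split or lost in counting.

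These 7 genes are the ones outside the interferon group that the naming rule placed among the 10 largest upward ratios at 4 h, so their sum at 4 h is a description. Without the deep barcodes they summed to 1154, 1906, 6355 and 2751 CPM in order of time. All 78 cells at 4 h held at least 1 of their UMIs, with a median of 11 and a highest value of 56, while 27.4% of the 336 cells at 0 h held none. The male-called cells alone gave 973, 2076, 7989 and 1987 CPM from 71, 60, 15 and 3 cells. The female-called cells gave 1853, 1858, 3497 and 3565 CPM from 11, 19, 2 and 3 cells. The cells of neither call gave 1175, 1866, 6152 and 2723 CPM, so the 4 h library was highest among male-called and uncalled cells, and the few female-called cells at 4 and 12 h were alike.

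Socs3 is a textbook target of STAT3, and its promoter is shown for the STAT-type palindrome TTCNNNGAA. The window runs from 250 bases before to 50 bases after the start, from RefSeq (GRCm38.p6, chr11:117969317-117969616, minus strand, read 5' to 3' along the gene), and capitals mark the palindrome, which begins 154 bases before the start. The gene span given above starts at 117970047 on this strand, upstream of the window, which thus lies inside that span.
Socs3 promoter: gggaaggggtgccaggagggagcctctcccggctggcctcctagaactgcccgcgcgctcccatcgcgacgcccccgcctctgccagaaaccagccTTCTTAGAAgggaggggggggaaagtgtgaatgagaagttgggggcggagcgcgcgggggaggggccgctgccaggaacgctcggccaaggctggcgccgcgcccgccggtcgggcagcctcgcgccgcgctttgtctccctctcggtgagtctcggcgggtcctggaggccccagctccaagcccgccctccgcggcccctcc
These letters, searched on both strands, are in 2 of the 6 genes of the group with a RefSeq promoter (Socs3 and Sbno2), and in 8.30% of all 32851 promoters and 9.55% of the 27025 genes they belong to. Of the 14 genes of the interferon list below with a RefSeq promoter, 3 also held these letters. Csf2rb is named only. A match is a description of the letters and not evidence of binding.

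Interferon-stimulated genes were also higher at 4 h, from a list of 20. Of the 13 members with enough UMIs, 6 were 2-fold or more higher and 0 lower at 4 h, against 10.5% and 4.89% of all genes. At 1 h the count was 1 higher (Bst2, a tetherin that holds virions at the cell surface) and 0 lower of 15, against 2.78% of all genes higher, and at 12 h 2 higher and 0 lower of 9, against 7.82%. The median log2 ratio of the list was 0.33, 0.96 and 0.75, beside 0.10, 0.12 and 0.23 for all genes tested. The median without the deep barcodes was 0.22, 1.22 and 0.78, and the same genes had medians of 0.01, 0.08 and 0.23 in the other kept barcodes.

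The 6 genes called at 4 h were Ifit1, Ifit3, Isg15, Oasl1, Oasl2 and Slfn5. Isg15, a ubiquitin-like modifier (chromosome 4, 156199424 to 156200818, minus strand), stood at 115, 173, 394 and 264 CPM, with log2 ratios of 0.59, 1.78 and 1.22. It was found in 8.76%, 12.5%, 18.8% and 17.9% of thinned cells (12.7%, 18.9%, 29.3% and 22.4% before thinning) and in at most 0.2% of tubule barcodes. It was also higher in the other kept barcodes, by 1.02 at 4 h and 0.93 at 12 h, at 5.60 to 11.4 CPM. Ifit1, which binds foreign RNA ends (chromosome 19, 34640871 to 34650009, plus strand), stood at 35.6, 54.6, 152 and 25.6 CPM, and was 2.09 higher at 4 h (1.32 to 2.89). Ifit3, its binding partner, stood at 26.0, 31.9, 107 and 8.52 CPM, on 24 UMIs at 4 h and 1 at 12 h. Oasl2, of the oligoadenylate synthetase family, stood at 104, 152, 313 and 188 CPM with log2 ratios of 0.54, 1.59 and 0.87. Rsad2, the antiviral enzyme viperin, was called only at 12 h, at 324 CPM against 127 at 0 h, with a log2 ratio of 1.36. The Ifit genes were thus high in the 4 h library alone, whereas Isg15 was above 0 h in every later library.

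**Figure D3:**
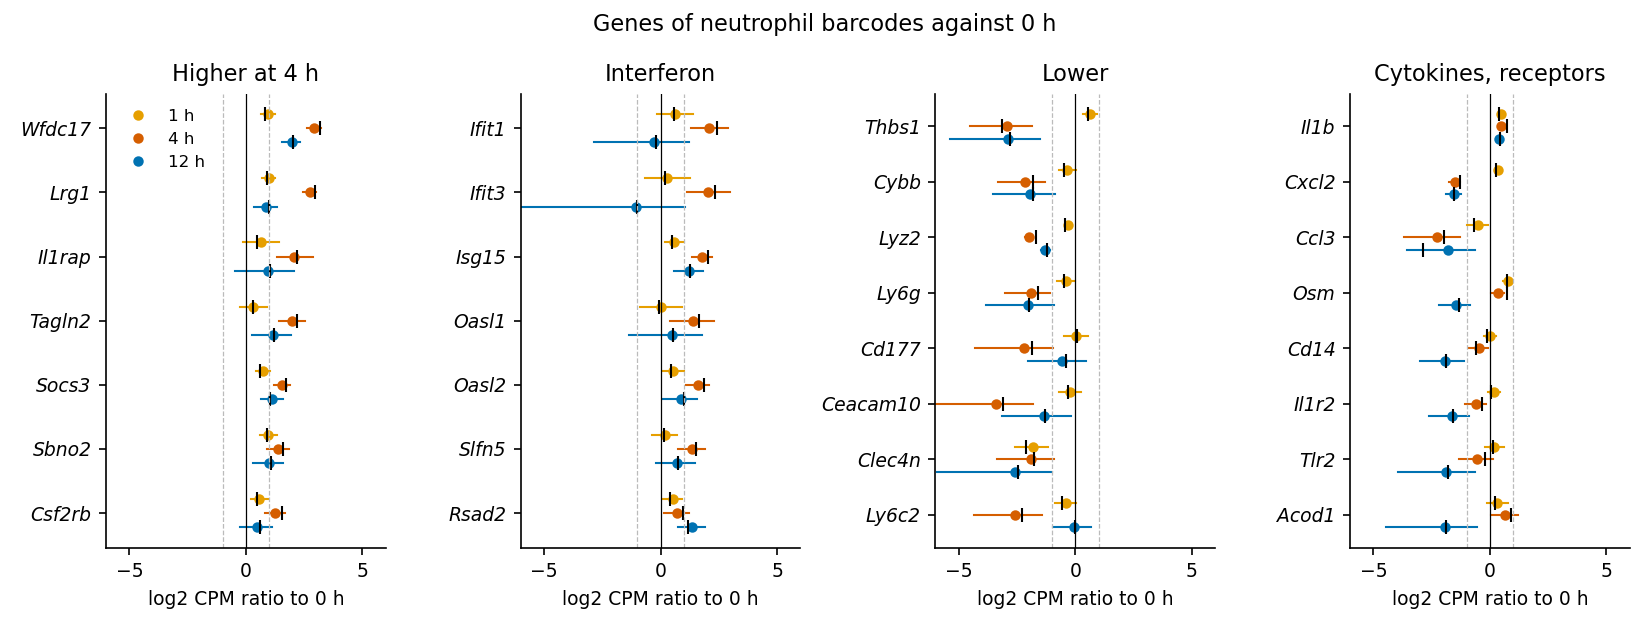
Log2 ratio of CPM to 0 h for 4 groups of genes at 1 h, 4 h and 12 h. Points are sums over all members, lines exact 95% counting intervals (drawn up to 6 in either direction) and black ticks the value without the deep barcodes; dashed lines mark 2-fold. Wfdc17 and Lrg1 reach 2.92 and 2.73 at 4 h, and Thbs1 -2.92.

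The interferon transcripts were unevenly spread over cells. Without the deep barcodes the 20 genes gave 2582, 3032, 5196 and 3514 CPM in order of time. The median cell held 3, 3, 7 and 4 of their UMIs, and the highest cell 59, 54, 60 and 34. Cells with 10 or more such UMIs were 10.7%, 13.4%, 29.5% and 17.9% of cells in order of time, and held 41.8%, 49.4%, 69.1% and 50.9% of the interferon UMIs. Strongly positive cells were thus present in every library, the 0 h library included. At 1000 UMIs per cell, 3 or more of the 20 genes were found in 19.03%, 22.8%, 41.2% and 35.7% of neutrophils, and in at most 0.301% of tubule barcodes.

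The interferon values at 4 h are also given by sex call. In male-called cells the 20 genes gave 2276 CPM at 0 h (2032 to 2540, 71 cells) and 2804 at 4 h (2243 to 3463, 15 cells), intervals that overlapped. In cells of neither call they gave 2624 CPM at 0 h (252 cells) and 5794 at 4 h (61 cells). In female-called cells they gave 3835 CPM at 0 h (11 cells) and 5722 at 4 h (2 cells). Deep barcodes included, the median log2 ratio of the 13 measured genes at 4 h was -0.88 in male-called members. It was 1.20 in female-called members and 0.96 in all members. Isg15 itself had 4 UMIs in male-called members at 4 h against 14 at 0 h, a log2 ratio of -0.85. The difference between the sex calls was not tested, since the calls rest on few cells of 1 library.

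**Figure D4:**
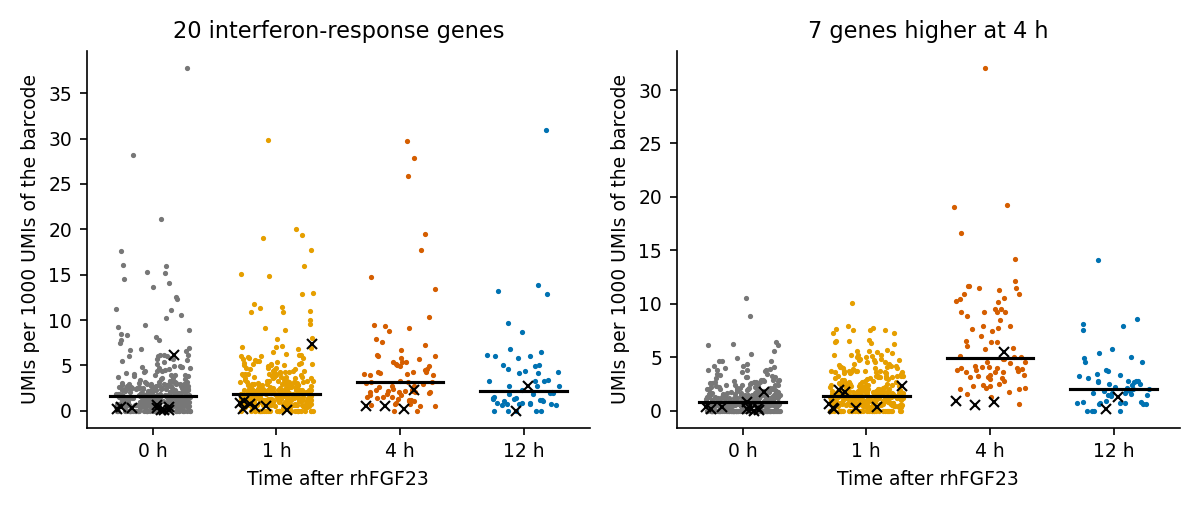
UMIs of 20 interferon-response genes (left) and of 7 genes higher at 4 h (right) per 1000 UMIs of each neutrophil barcode, by library; bars are medians and crosses deep barcodes. The median is highest at 4 h in both panels, while the single highest interferon cells are at 0 h and 12 h.

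Promoters of 4 of the called interferon genes are shown for the core of the interferon-stimulated response element, GAAA, any 2 bases and GAAA again, searched on both strands. They come from RefSeq (GRCm38.p6), run 5' to 3' along the gene from 250 bases before to 50 after the start, and carry the matches in capitals. They lie at chr4:156200769-156201068 (minus strand) for Isg15, chr19:34640639-34640938 (plus) for Ifit1, chr19:34583279-34583578 (plus) for Ifit3 and chr11:82951852-82952151 (plus) for Slfn5. The Slfn5 window lies inside the span of its gene, which starts at 82951349 by GENCODE.
Isg15 promoter: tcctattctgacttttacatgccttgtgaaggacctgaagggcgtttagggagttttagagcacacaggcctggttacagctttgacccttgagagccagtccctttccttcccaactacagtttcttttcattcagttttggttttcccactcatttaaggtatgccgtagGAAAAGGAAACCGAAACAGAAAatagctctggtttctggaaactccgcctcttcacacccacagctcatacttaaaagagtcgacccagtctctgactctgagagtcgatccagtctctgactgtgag
Ifit1 promoter: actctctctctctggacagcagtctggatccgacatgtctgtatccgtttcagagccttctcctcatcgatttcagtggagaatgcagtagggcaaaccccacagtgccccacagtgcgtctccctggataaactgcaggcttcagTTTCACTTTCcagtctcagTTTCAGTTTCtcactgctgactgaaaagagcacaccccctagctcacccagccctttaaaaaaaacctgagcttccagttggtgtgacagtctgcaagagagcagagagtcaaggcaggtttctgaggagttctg
Ifit3 promoter: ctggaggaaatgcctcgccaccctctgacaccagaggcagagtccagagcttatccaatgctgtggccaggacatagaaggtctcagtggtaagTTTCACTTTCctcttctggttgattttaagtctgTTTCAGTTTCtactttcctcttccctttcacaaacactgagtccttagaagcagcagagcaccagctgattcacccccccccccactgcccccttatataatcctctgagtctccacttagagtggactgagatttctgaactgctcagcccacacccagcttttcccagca
Slfn5 promoter: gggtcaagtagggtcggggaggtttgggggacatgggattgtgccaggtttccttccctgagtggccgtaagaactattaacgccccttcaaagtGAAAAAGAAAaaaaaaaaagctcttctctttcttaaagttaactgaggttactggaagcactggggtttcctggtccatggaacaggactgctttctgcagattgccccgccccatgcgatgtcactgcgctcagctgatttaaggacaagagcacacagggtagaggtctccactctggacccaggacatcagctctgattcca
Isg15 held 3 overlapping matches starting 78 to 66 bases before the start, Ifit1 2 from 104 to 85 bases, Ifit3 2 from 156 to 122 bases and Slfn5 1 at 155 bases. Of the 14 interferon genes with a RefSeq promoter, 7 held the letters, against 3.44% of all promoters and 3.99% of genes. Oasl1 and Oasl2 did not hold them in this window. Of the 6 genes of the Wfdc17 group with a RefSeq promoter, Il1rap held them.

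Lyz2, Thbs1 and several granule and surface genes were lower at 4 h. Lyz2, the myeloid lysozyme (chromosome 10, 117277331 to 117282321, minus strand), stood at 5202, 4236, 1320 and 2131 CPM. Its log2 ratio was -1.98 at 4 h (-2.15 to -1.81) and -1.28 at 12 h, or -1.68 and -1.22 without the deep barcodes. In the other kept barcodes Lyz2 was near 0 h at both times (-0.12 and 0.31). Thbs1, the matrix glycoprotein thrombospondin 1 (chromosome 2, 118111876 to 118127133, plus strand), had 160, 222, 6 and 3 UMIs, or 219, 337, 26.9 and 25.6 CPM. Its log2 ratios were 0.62, -2.92 (-4.50 to -1.87) and -2.88 (-5.39 to -1.52), with the 0 h and 1 h libraries high and both later ones low.

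Cybb, the catalytic subunit of the NADPH oxidase that makes superoxide (chromosome X, 9435252 to 9487771, minus strand), stood at 211, 167, 44.8 and 51.1 CPM. Its log2 ratios of -2.17 at 4 h and -1.93 at 12 h made it the only 1 of 6 oxidase subunits called, in either direction, at these times. Of all genes 15.4% and 13.5% were called in either direction. Mmp8, the neutrophil collagenase of the secondary granules, stood at 1069, 942, 394 and 511 CPM, with log2 ratios of -1.43 and -1.05 at 4 and 12 h. Cd177, a surface receptor of neutrophil subsets, stood at 93.0, 95.6, 17.9 and 59.7 CPM and was called at 4 h alone (-2.22). Ceacam10, a secreted member of the carcinoembryonic antigen family, had 86, 66, 2 and 5 UMIs. Ly6c2, a surface protein shared with monocytes, had 107, 73, 5 and 16 UMIs, low only at 4 h. Plk3, a stress-responsive kinase, stood at 233, 182, 44.8 and 93.8 CPM. In the other kept barcodes Thbs1 was not lower at 4 h (0.77), whereas Cybb (-1.16), Plk3 (-1.07) and Ceacam10 (-2.17, at most 0.0751 CPM) were also 2-fold or more lower. Within macrophage barcodes, 6 of them at 4 h, the log2 ratio of Cybb was -0.06. The part of changed cell shares in the values of the other kept barcodes was not tested.

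Of the granule lists, the secondary granules had 3 of 4 measured genes 2-fold or more lower at 4 h (Mmp8, Ngp and Cd177) and 1 lower at 12 h (Mmp8), against 4.89% and 5.73% of all genes, with list medians of -1.64 and -0.79. Ngp, a granule protein of late marrow stages, had 99, 27, 8 and 10 UMIs. It was the only 1 of the 4 called at 1 h, against 3.75% of all genes lower. Lcn2, the siderophore-binding lipocalin, stood at 1590, 1750, 1620 and 801 CPM and was not called at any time. Of 5 primary granule genes, Mpo, Elane, Ctsg and Ms4a3 had 0 UMIs in every library, and none of the 5 had enough UMIs to compare. Ltf, for lactoferrin, had 1 UMI in all. The gelatinase granule list had 0 genes called at any time, out of 4, 4 and 3 measured. Of all genes 6.52%, 15.4% and 13.5% were called in either direction. Ly6g, the classical mouse neutrophil antigen (chromosome 15, 75155240 to 75159126, plus strand), stood at 192, 147, 49.2 and 42.6 CPM, on 140, 97, 11 and 5 UMIs. Its log2 ratios were -1.90 at 4 h and -2.04 at 12 h, and in the other kept barcodes it was also lower (-3.21 and -5.26), at no more than 0.158 CPM. G0s2, a lipase inhibitor, stood at 2017, 2000, 864 and 750 CPM, with -1.22 and -1.42, the first of which was -0.98 without the deep barcodes.

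Cytokine transcripts split at 4 h into those that stayed within 2-fold of 0 h and those that were lower. Il1b, for IL-1 beta, stood at 4608, 6459, 6409 and 6043 CPM and was found in 84.6%, 95.5%, 97.5% and 89.3% of thinned cells (89.3%, 97.6%, 98.8% and 94.8% before thinning), against at most 0.1% of tubule barcodes. Its log2 ratios of 0.49, 0.48 and 0.39 were under 2-fold. Cxcl2, the neutrophil-attracting chemokine (chromosome 5, 90903871 to 90905938, plus strand), stood at 2040, 2592, 712 and 690 CPM, with log2 ratios of 0.35, -1.52 and -1.56. The later libraries were both low, and both lay outside the intervals of the earlier ones. Ccl3, for the chemokine MIP-1 alpha, had 117, 73, 7 and 5 UMIs. Osm, for oncostatin M, stood at 504, 851, 636 and 179 CPM, highest at 1 h and called only at 12 h, at -1.46. Of the 13 listed cytokines 4 of 8 measured were lower at 4 h (Cxcl2, Ccl3, Ccl6 and the prostaglandin synthase Ptgs2) and 3 of 8 at 12 h, against 4.89% and 5.73% of all genes, and 0 were higher at any time. Ccl6 and Ptgs2 were just past 2-fold (-1.08 and -1.06), and were -0.84 and -0.82 without the deep barcodes. The other kept barcodes also had lower Cxcl2, at -2.03 and -3.28 at 4 and 12 h, on levels of at most 2.92 CPM.

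At 12 h Cd14, Tlr2, Il1r2 and Acod1 were lower. Cd14, the lipopolysaccharide co-receptor, stood at 368, 367, 264 and 93.8 CPM, with a log2 ratio of -1.91 at 12 h. Tlr2, a receptor for bacterial lipoproteins, stood at 140, 158, 94.0 and 34.1 CPM (-1.87). Il1r2, the IL-1 decoy receptor, stood at 357, 404, 233 and 111 CPM (-1.64). Acod1, which makes itaconate, had 82, 92, 39 and 3 UMIs. All 4 genes were under 2-fold at 1 and 4 h, and were low in the 12 h library alone. In the other kept barcodes Cd14 and Tlr2 were both at 0.03 at 12 h, whereas Il1r2 (-1.92) and Acod1 (-3.00) were lower there too, at no more than 0.559 CPM at any time. Slc16a3, a lactate exporter, stood at 509, 562, 233 and 162 CPM and was called at 4 h (-1.12) and 12 h (-1.62), of which the first was -0.88 without the deep barcodes. Among the genes higher at 12 h, Wfdc17 was at 1.96 (1.57 to 2.34), and Rgs3, a regulator of G protein signalling, stood at 82.1, 82.0, 157 and 315 CPM (1.95). Ifitm1, an interferon-inducible membrane protein, stood at 553, 645, 1168 and 1304 CPM, with 1.08 at 4 h and 1.24 at 12 h. Wfdc17 and Ifitm1 had 0 UMIs in the 3 male-called members at 12 h.

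At 1 h few neutrophil genes differed. Clec4n, which encodes the fungal receptor Dectin-2 (chromosome 6, 123229843 to 123247021, plus strand), had 92, 23, 7 and 2 UMIs in order of time, or 126, 34.9, 31.3 and 17.1 CPM. Its log2 ratios were -1.83 (-2.58 to -1.18), -1.92 (-3.36 to -0.91) and -2.57 (-5.95 to -0.99). It was found in 10.9% of thinned cells at 0 h and 2.24% at 1 h (14.7% and 4.88% before thinning), and in 0% of tubule barcodes. It was also lower in the other kept barcodes at 1 h (-1.20), at levels of at most 0.359 CPM. Ccrl2, a chemerin-binding receptor, stood at 75.3, 182, 130 and 76.7 CPM, 1.27 higher at 1 h. Rab11fip4, an endosomal adaptor, had 19 and 38 UMIs at 0 and 1 h, and Trafd1, a feedback protein of Toll-like receptor signalling, had 26 and 54. These were the 4 genes that the rule named at 1 h.

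Immediate early genes and ERK feedback genes, which many signals induce, FGF among them, were compared between neutrophils and the other kept barcodes. Egr1, an immediate early transcription factor, stood at 665, 669, 501 and 673 CPM in neutrophils, log2 ratios of 0.01, -0.40 and 0.03. In the other kept barcodes it stood at 43.5, 223, 49.8 and 14.5 CPM, 2.36 higher at 1 h. The interval of the neutrophil ratio at 1 h, -0.18 to 0.20, lay far below that value. Fos, another immediate early factor, stood at 3967, 5296, 3880 and 3972 CPM in neutrophils and at 96.8, 118, 71.0 and 21.9 CPM in the others. Its log2 ratio at 1 h was 0.42 in neutrophils (0.35 to 0.49) and 0.28 in the others. Of 16 measured immediate early genes 15 had a log2 ratio above 0 at 1 h, and 0 were called in neutrophils at 1, 4 or 12 h, against 6.52%, 15.4% and 13.5% of all genes in either direction. The list's medians were 0.37, -0.08 and 0.12, beside 0.10, 0.12 and 0.23 for all genes and 0.35, -0.27 and -0.98 in the other kept barcodes.

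Dusp6, the ERK phosphatase induced by FGF signals, had 142, 115, 16 and 22 UMIs in neutrophils. Its log2 ratios there were -0.15, -1.40 and -0.02, while in the other kept barcodes they were 1.69, 1.39 and 0.56. At 1 and 4 h the value of the other barcodes lay above the neutrophil interval (-0.52 to 0.21 and -2.29 to -0.69). The FGF receptor Fgfr1 had 4, 1, 1 and 0 UMIs in all members, and Fgfr4 had 1, 0, 0 and 1. Kl, for Klotho, had 109, 27, 12 and 0 UMIs, of which 60 of the 109 were in a single barcode. Without the deep barcodes Kl stood at 8.18, 8.49, 32.4 and 0 CPM, against 170 to 257 CPM in the other kept barcodes.

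**Figure D5:**
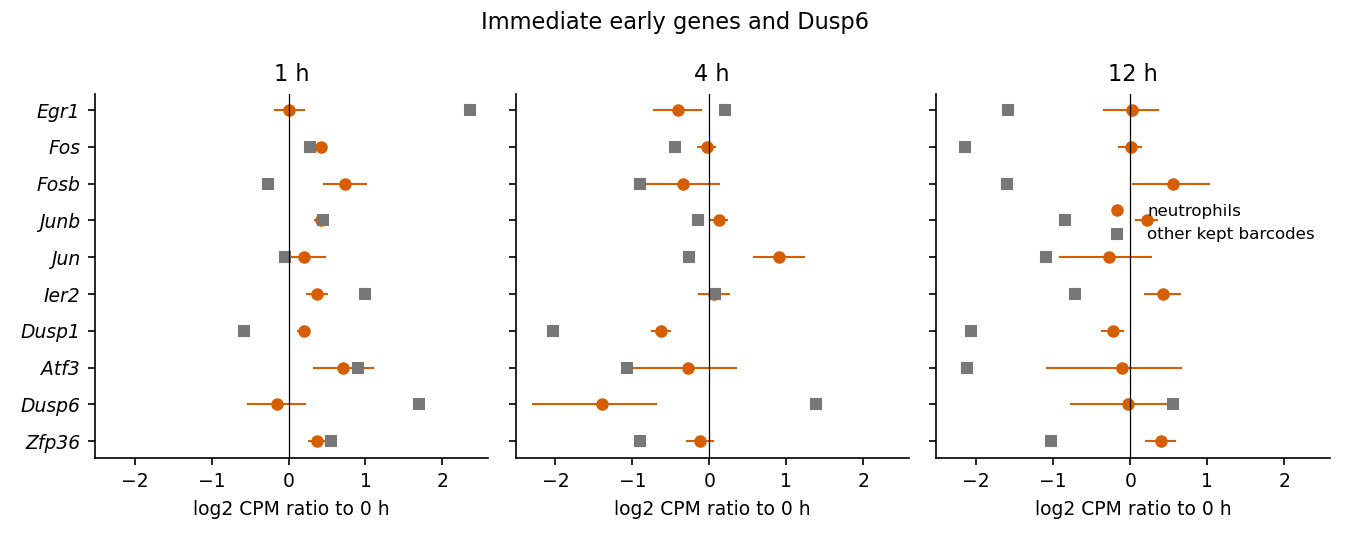
Log2 ratio of CPM to 0 h for 9 immediate early genes and Dusp6 at 1, 4 and 12 h, in neutrophils (circles, lines are exact 95% counting intervals) and in all other kept barcodes (squares). At 1 h Egr1 is at 0.01 in neutrophils and 2.36 in the others.

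As a list, heat shock genes had higher levels at 4 h, while the share of cells with a UMI was not higher for every gene. Of 10 measured, 5 were 2-fold or more higher and 0 lower, against 10.5% and 4.89% of all genes. The list median was 0.97 (1.00 without the deep barcodes), and 0.41 in the other kept barcodes. Without the deep barcodes the 12 listed genes summed to 1207 CPM at 0 h and 2524 at 4 h. The other kept barcodes were higher, at 4638 and 5124 CPM, and the part of transcripts carried over from them was not tested. The called genes were the chaperones Hsp90ab1 (1.92, and 0.94 without the deep barcodes), Hspd1 (1.05 and 1.06), Hspb1, Hspa1a and Hspa1b. Hspb1 had 71 UMIs at 4 h and 1 at 0 h. At 4 h Hspb1 was found in 3.66% of members and Hspa1b in 4.88%, so these calls, like that of Hspa1a, came from few barcodes. Hspa1a had 55 UMIs at 4 h in 3 cells, 47 of them in 1 cell. At 1 h 0 of 7 were called, against 6.52% of all genes in either direction, and at 12 h 1 of 5 was higher, against 7.82%.

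Of 7 measured survival and apoptosis genes, 3 were 2-fold or more lower and 0 higher at 4 h, against 4.89% and 10.5% of all genes. At 1 h 1 of 11 was higher and 0 lower, against 2.78% and 3.75%. At 12 h 0 of 1 was called, against 13.5% in either direction. Among those lower at 4 h, Bid, which promotes apoptosis, had a log2 ratio of -1.16 on 6 UMIs, and -0.85 without the deep barcodes. Bcl2a1b, which opposes apoptosis and has near-identical paralogs, had a log2 ratio of -1.86 (-4.40 to -0.41) on 3 UMIs. Mcl1, the main survival factor of neutrophils, stood at 2011, 2709, 2193 and 2242 CPM. Adhesion and chemotaxis receptors had 0 of 14 called at 1 h, against 6.52% of all genes in either direction. They had 1 lower of 14 at 4 h and 1 lower of 13 at 12 h, against 4.89% and 5.73% of all genes. NF-kB feedback genes had 0 called of 12, 7 and 4, against 6.52%, 15.4% and 13.5% of all genes in either direction. Glucocorticoid targets had 0 of 9 called at 1 h, against 6.52% of all genes in either direction. They had 1 lower of 7 at 4 h and 1 lower of 6 at 12 h, against 4.89% and 5.73% of all genes.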

How the data were processed

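The deposited matrices hold raw UMI counts per gene and barcode, selected from all droplets by the authors; per the submitters' processing notes Cell Ranger 3.1.0, STAR, Seurat and mm10 were used, with no roles given here. The 4 libraries held 139675666 to 158838728 UMIs. The members and gene lists were chosen with earlier results of these data known. Counts were summed over members per library and scaled to CPM. A ratio had 0.5 added to each count and an exact conditional binomial interval; levels had Poisson and shares Clopper-Pearson intervals. A gene was measured with at least 10 UMIs expected in the smaller library, and called at 2-fold. Named genes were the 10 largest calls per direction and time whose interval left out 0, leaving out sex-linked, immunoglobulin, haemoglobin, ribosomal, mitochondrial and unnamed genes; the 6 genes of the rule were only described. That rule also asked for 2-fold enrichment over the other kept barcodes and the same direction in male-called and female-called members. The added rule without deep barcodes kept the enrichment, dropped the condition on sex calls and asked for 10% or more of cells. Pairs of libraries shared 36 to 57 barcode sequences, none of them of members. No doublet caller was run; members over 3 times their library's median depth were left out as an alternative. A symbol on several rows was read from its first row. The ratios and intervals were tested on simulated independent Poisson counts. Such counts lack the clustering of UMIs in single barcodes described above, for which the intervals were not tested. Python 3.11.15, numpy 2.4.6, scipy 1.17.1 and pandas 2.3.3 were used. Gene positions are from GENCODE vM21 (GRCm38).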

Additional observations from a re-analysis of the deposited data

How the results depend on the processing

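With at most 25% mitochondrial UMIs the neutrophil share was 5.11%, 5.51%, 0.986% and 0.846% of kept barcodes in order of time, and with no Slc34a1 UMI it was 2.67% and 2.79% at 0 and 1 h and 0.415% at 12 h. Of barcodes with a Ptprc UMI or called neutrophils it was 30.3%, 35.0%, 13.2% and 5.94%. Counts of called genes moved with the settings. With no Slc34a1 UMI 121 genes were higher and 72 lower at 4 h, and 41 higher and 50 lower at 12 h. With a median ratio of 1, 50 were higher at 12 h, and with each member weighted equally 57. A minimum of 5 expected UMIs gave 309 higher and 501 lower at 1 h, 610 and 248 at 4 h, and 310 and 151 at 12 h. A minimum of 20 gave 35 and 78, 141 and 67, and 35 and 46. Female-called members gave 71 and 52 at 4 h and 33 and 34 at 12 h. Male-called members gave 58 lower at 1 h, 209 lower at 4 h, and 2 higher and 12 lower at 12 h. Leaving out deep members gave 79 lower at 1 h, 109 and 60 at 4 h, and 48 and 39 at 12 h. Enriched genes alone gave 64 and 19 at 1 h, 79 higher at 4 h, and 33 and 35 at 12 h. Leaving out deep members and keeping enriched genes in 10% of members, both chosen after seeing the data, gave 4 and 1, 62 and 43, and 37 and 28. The cause of these moves was not tested.

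For the 65 values of named genes, 483 of 544 alternative values stayed within the interval of the value given above, 61 moved outside it and 0 of the called values changed sign. Genes under the UMI minimum in a setting gave no value there, so changes of sign on few UMIs were not counted. Among these was Isg15 at 4 h, which was below 0 h in male-called members. No paired analysis was possible because each group is 1 library and replicate numbers are only names. The 82 and 58 cells at 4 and 12 h limit what could be measured, to 2579 and 1432 genes.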

Other observations

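Transcripts of other cell types were few in most neutrophils and differed between libraries. Erythroid markers summed to 39.7, 464, 13.4 and 51.1 CPM over all members in order of time, and 3 of 3 measured erythroid genes were 2-fold or more higher at 1 h, against 2.78% of all genes. In cells thinned to 1000 UMIs an erythroid UMI was found in 16 cells at 0 h and in 2 at 1 h, 1 of which held 92, so the 1 h sum came from few barcodes. The sums without the deep barcodes were 47.4, 280, 19.4 and 62.8 CPM. Endothelial markers summed to 46.5, 334, 398 and 341 CPM, and 5 of 5 measured were higher at 1 h, against 2.78% of all genes. Leaving out the deep barcodes gave 54.0, 370, 576 and 10.5 CPM. Emcn, the endothelial sialomucin endomucin, had 9, 75, 18 and 11 UMIs, found in 0.578%, 1.83%, 3.66% and 1.72% of members, so these counts came from few barcodes. T and NK cell markers summed to 38.3, 42.5, 183 and 162 CPM, and without the deep barcodes to 14.7, 34.0, 0 and 199 CPM, since all 41 UMIs at 4 h were in 1 deep barcode. Macrophage markers, among which C1qa is at 0 by the rule, summed to 341, 363, 474 and 392 CPM (267, 296, 498 and 335 without the deep barcodes). Outside the 1 h library C1qb and C1qc were found in no member, so the sums came from Apoe, Cd81 and Adgre1. Thinned tubule barcodes held Apoe in 14.8% to 20.6%, Cd81 in 23.1% to 25.3% and Adgre1 in 0%. The monocyte list summed to 152, 127, 35.8 and 153 CPM, of which Ly6c2 gave 146, 111, 22.4 and 136 CPM. Dendritic cell markers had at least 3 of 5 genes at 0 UMIs in every library. The part of these transcripts in the differences above was not tested.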
